A study of Mus musculus with 11 samples.

Results

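Microglia-like cells sorted from mouse brain after transplantation of blood-forming cells into the cerebral ventricles (intracerebroventricular, ICV) were compared with the same cells after transplantation through the bloodstream (intravenous, IV). The comparison took 6 of the 11 libraries of the series, chosen by their route label: 3 ICV libraries and 3 IV libraries. Each route had 1 library of each of 3 sorted populations, named after the allele of the pan-leukocyte antigen CD45 and the cell label: CD45.1 µ first, then CD45.1 TAµ, then CD45.2 µ, so libraries were paired across routes by population. Values of 3 libraries are given in that order of populations throughout. 3 libraries from the lumbar intrathecal route (ITL) entered the fit, which estimates the spread, and their levels are shown beside some genes. An ICV library named PBS and a control library were kept out.

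Per the series' design text, lineage-negative stem and progenitor cells were placed in the ventricular space, and blood-forming cells were then given intravenously, at the same time or 5 days later. The labels do not say whether the mice behind the ICV libraries also received intravenous cells, which subset of cells each mouse received, which CD45 allele was the host's, or what TAµ and PBS stand for. They give no strain, age, sex, conditioning or time after transplantation, and no number of mice per library. The p-values therefore rest on how far single libraries depart from the sum of a route effect and a population effect, not on the spread between animals.

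Microglia are the resident macrophages of the brain parenchyma and arise from yolk sac progenitors. After conditioning, cells derived from transplanted blood stem cells can settle in the brain and take on a microglia-like form, while keeping genes that set them apart from resident microglia. Macrophages at the brain's borders, in the meninges, the perivascular spaces and the choroid plexus, share part of that gene set. Immediate-early genes encode short-lived transcription factors and feedback regulators that are switched on within minutes of stimulation, and in microglia also during the isolation of cells from tissue.

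All 6 libraries carried the microglial transcripts Cx3cr1, P2ry12 and Tmem119. In CPM (counts scaled to the library total and its composition), P2ry12, a purinergic receptor of resting microglia, lay at 1289.9, 1095 and 1430.2 in the ICV libraries and 992, 672 and 2657 in the IV libraries. Sall1, a transcription factor of resident microglia, was low in both CD45.1 TAµ libraries, at 7.35 CPM (ICV) and 2.11 CPM (IV). Total counts were 11139686, 11961069 and 21282823 in the ICV libraries and 17048115, 14802989 and 12938826 in the IV libraries, and Rn45s, a ribosomal RNA precursor, took 6.98%, 25.1% and 21.8% of them in the ICV libraries and 11.9%, 8.95% and 8.67% in the IV libraries. Some libraries stood apart. The IV CD45.2 µ library detected the fewest genes (10477) and held 11 of 19 neutrophil genes at 0. The ICV CD45.1 µ library held choroid plexus transcripts, and the ICV CD45.1 TAµ library held more transcripts of oligodendrocytes and vessels than the others. Sex-linked transcripts differed between the routes in every population.

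No gene passed edgeR's quasi-likelihood test at a Benjamini-Hochberg adjusted p of 0.05: 0 of 13339 genes (0%), with a lowest adjusted p of 0.0757. Without adjustment, 1230 genes (9.22%) had a p under 0.05, of which 690 (5.17%) were higher and 540 (4.05%) lower in the ICV libraries. With libraries scaled by their totals alone that split was 455 higher and 789 lower. The count itself depended on the fit. By edgeR's legacy quasi-likelihood fit 682 of 13339 genes had an unadjusted p under 0.05, and in the 6 libraries alone 553 of 12818 did. DESeq2 called 412 of the 17299 genes it tested (2.38%), of which 232 had fitted changes beyond 10 log2 units, and limma-voom with quality weights called 26 genes (0.195%). Genes and lists are therefore described by their values, and none of the genes named below passed edgeR's test of ICV against IV over the 9 libraries.

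The 3 pairs of libraries differed in unlike ways across the transcriptome. The correlation across genes of the log2 ratios of ICV over IV was 0.087 between CD45.1 µ and CD45.1 TAµ, -0.053 between CD45.1 µ and CD45.2 µ, and -0.10 between CD45.1 TAµ and CD45.2 µ. Genes are not independent replicates, and these values describe 3 pairs only. ICV exceeded IV in 3 of 3 populations for 1685 genes (12.6%) and lay below it in 3 of 3 for 1379 (10.3%). In 669 genes (5.02%) all 3 ICV libraries lay above all 3 IV libraries, and in 620 (4.65%) all lay below. Without composition scaling those counts were 408 and 935.

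Most immediate-early genes were lower in the ICV libraries. Of 25 members, all of them tested, 22 had a fitted change below 0 (46.1% of all genes did), and 16 had an unadjusted p under 0.05 and were lower, against 4.05% of all genes. In 14 members all 3 ICV libraries lay below all 3 IV libraries, against 4.65% of all genes. By the other tools, limma-voom called 9 of the 25 members (0.195% of all genes) and DESeq2 8 (2.38% of all genes). The list's median log2 change was -0.59, and the median over all genes tested was 0.065. Members were lower in 19 of 25 in the CD45.1 µ pair (48.7% of all genes were), 24 of 25 in the CD45.1 TAµ pair (51.7%) and 17 of 25 in the CD45.2 µ pair (39.5%). The count of 16 rested partly on CD45.1 TAµ: it was 9 without the ICV library of that population, 9 without the IV one and 4 without all 3 libraries of it. It was 9 without the 3 CD45.1 µ libraries and 17 without the IV CD45.2 µ library.

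Promoters of 3 genes of the immediate-early and inflammatory lists are shown because their transcripts were lower in ICV in each population and because they carry letters bound by stimulus-activated factors. They cover the 250 bases before the start site, taken from RefSeq on GRCm38.p6, whereas the counts were made on GRCm39. Capitals mark TGACG, the core of the cyclic AMP response element, searched on both strands (and its overlapping reverse copy in Dusp1), and in Tnfaip3 also the NF-kB consensus. Klf2 lies at chr8:72318812-72319061 on the plus strand, Dusp1 at chr17:26508473-26508722 on the minus strand and Tnfaip3 at chr10:19015411-19015660 on the minus strand.
Klf2: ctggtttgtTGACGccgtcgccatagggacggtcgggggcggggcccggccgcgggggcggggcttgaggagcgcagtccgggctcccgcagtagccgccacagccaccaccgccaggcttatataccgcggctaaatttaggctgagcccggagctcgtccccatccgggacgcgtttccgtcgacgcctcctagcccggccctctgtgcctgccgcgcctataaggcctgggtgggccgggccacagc
Dusp1: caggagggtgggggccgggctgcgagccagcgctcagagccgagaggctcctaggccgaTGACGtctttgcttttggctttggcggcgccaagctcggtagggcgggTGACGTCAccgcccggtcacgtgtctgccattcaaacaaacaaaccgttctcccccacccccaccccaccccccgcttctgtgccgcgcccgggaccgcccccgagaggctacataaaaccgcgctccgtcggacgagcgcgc
Tnfaip3: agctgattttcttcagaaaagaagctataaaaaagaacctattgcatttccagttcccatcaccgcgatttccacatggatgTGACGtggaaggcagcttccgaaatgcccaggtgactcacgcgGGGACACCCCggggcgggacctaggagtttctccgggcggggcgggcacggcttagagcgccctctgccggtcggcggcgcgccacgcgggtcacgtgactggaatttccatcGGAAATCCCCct
TGACG began 241 bases before the start site in Klf2, 168 before it in Tnfaip3, and 191, 143 and 140 before it in Dusp1, where the last pair overlap as a palindrome. It occurred in 13 of the 21 immediate-early genes matched by symbol (61.9%) and in 5347 of 27025 genes of the promoter table (19.8%). The NF-kB consensus stood 125 and 12 bases before the start site shown for Tnfaip3, the first of its 2 in the promoter table. It occurred in 8 of 19 matched genes of the inflammatory list (42.1%) and in 2225 of all 27025 (8.23%). In the shares a gene counted if any of its start sites had a match. All of these are matches of letters, not measured binding.

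Klf2, a Krüppel-like factor that restrains inflammatory activation of myeloid cells, had 392, 338 and 377 CPM in the ICV libraries, against 817, 807 and 712 CPM in the IV libraries. The ICV libraries held about the same level in each population, all below the lowest IV library. The fitted log2 change was -1.08 ± 0.21 (SE), or 0.473 times the IV level (edgeR adjusted p = 0.135). Egr1, a zinc-finger transcription factor that is a standard marker of recent stimulation, had 713, 383 and 962 CPM in the ICV libraries, against 1194, 1789.8 and 3715 CPM in the IV libraries. The groups did not overlap, and the IV CD45.2 µ library was the highest. Its fitted change was -1.63 ± 0.30 (edgeR adjusted p = 0.135). Without the IV CD45.2 µ library the changes were -1.16 for Klf2 and -1.72 for Egr1.

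Dusp1, the phosphatase that switches off p38 and JNK kinases, had 1278, 1438 and 1499 CPM in the ICV libraries, against 2948, 3562 and 1649 CPM in the IV libraries. The groups did not overlap, although the ICV and IV libraries of CD45.2 µ were close, and the fitted log2 change was -0.91 ± 0.24 (edgeR adjusted p = 0.297). Ier2, an early response gene, had 87.3, 109 and 138 CPM in the ICV libraries, against 219.5, 284 and 203 CPM in the IV libraries, again without overlap. The AP-1 subunits Fos, Fosb, Jun, Junb and Jund and the stress factor Atf3 were among the 14 members without overlap, with fitted log2 changes between -1.02 (Fosb) and -0.59 (Jund). The 3 members fitted higher were Nr4a3, Myc and Dusp2, at 0.90, 0.60 and 0.91, of which Nr4a3 had an unadjusted p under 0.05, while Nr4a1 stood at -0.0059. Those members were named after their values were seen.

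**Figure D1:**
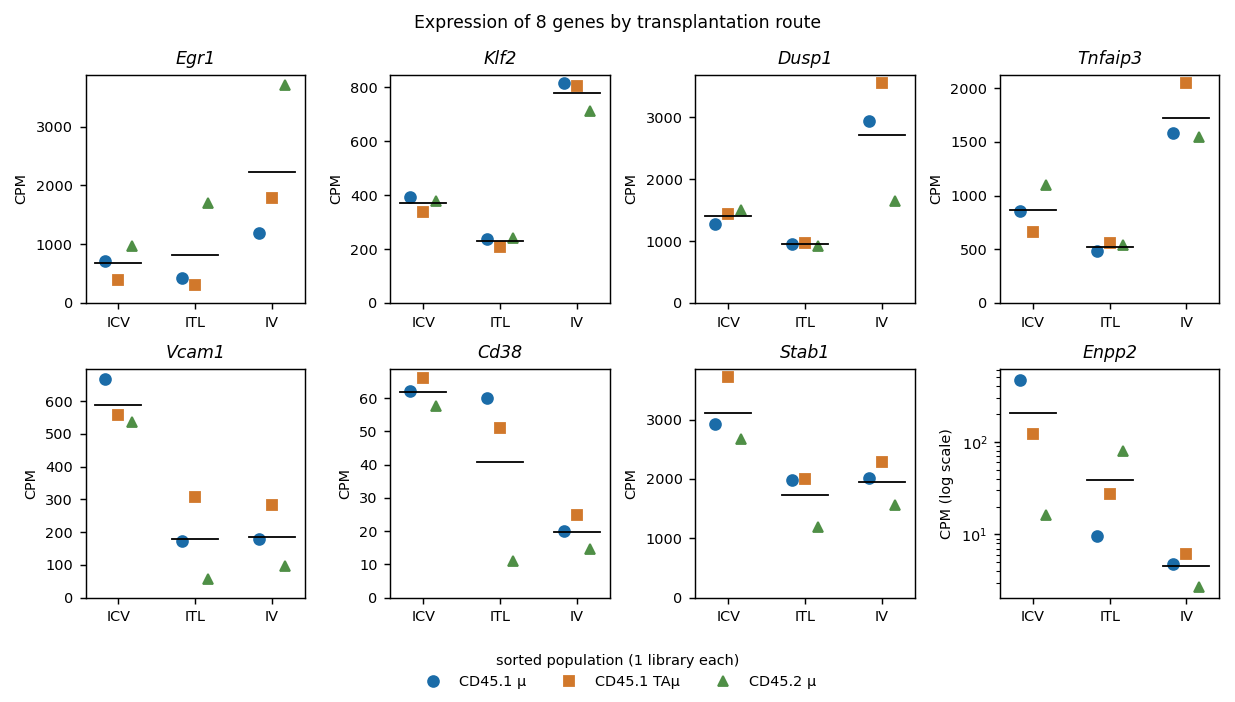
CPM of 8 genes (vertical axes, logarithmic for Enpp2 and linear from 0 for the others) in the ICV, ITL and IV libraries, with 1 point per sorted population and a bar at the mean. For each gene the 3 ICV points lie on one side of the 3 IV points, and for Egr1, Klf2, Dusp1 and Tnfaip3 the ITL means also lie below the IV means.

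The ITL libraries also had low levels of these genes. Klf2 had 238, 206 and 241 CPM, Dusp1 952, 971 and 913 CPM and Egr1 422, 307 and 1707 CPM in the ITL libraries. Set against the same 3 IV libraries, the ITL fit passed the edgeR test for these genes (log2 change -1.77 ± 0.22, adjusted p = 0.00171 for Klf2; -1.49 ± 0.24, adjusted p = 0.00945 for Dusp1; -1.71 ± 0.30, adjusted p = 0.0192 for Egr1). ICV and ITL shared those IV libraries as their comparison. Set directly against ITL, ICV had fitted log2 changes of 0.69 ± 0.21, 0.58 ± 0.24 and 0.082 ± 0.30 (edgeR adjusted p = 0.937, 0.998 and 0.998).

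Inflammatory cytokines and feedback regulators of NF-kB, the transcription factor behind many inflammatory genes, were also mostly lower in ICV. Of 24 tested members of 25, 16 had a fitted change below 0 (46.1% of all genes did), 7 were lower at an unadjusted p under 0.05 (4.05%) and 6 had all ICV libraries below all IV libraries (4.65%). The list's median was -0.36. In the 3 pairs 18, 19 and 13 of the 24 members were lower, against 48.7%, 51.7% and 39.5% of all genes. Tnfaip3, the ubiquitin-editing enzyme A20 that ends NF-kB signalling, had 853, 660.2 and 1095 CPM in the ICV libraries, against 1585, 2049.8 and 1544 CPM in the IV libraries. All 3 ICV libraries lay below all 3 IV libraries, with a fitted log2 change of -0.996 ± 0.23 (edgeR adjusted p = 0.196). The nuclear inhibitor gene Nfkbiz, the cytokine gene Il1a and the inflammasome sensor gene Nlrp3 followed, with fitted changes of -0.76 ± 0.23, -0.82 ± 0.23 and -0.70 ± 0.23. Cxcl2, a neutrophil-attracting chemokine from the chemokine list, had 283, 275 and 556 CPM in the ICV libraries and 864, 885 and 462 CPM in the IV libraries. Its CD45.2 µ pair ran the other way from the other pairs, and without the ICV CD45.2 µ library its change passed the test at -1.61 (edgeR adjusted p = 0.0332; range over all alternatives 0.0242 to 0.991). Without the ICV CD45.1 TAµ library it was -0.57. Other members did not move with these: Il1b, Nfkbia, Tnf and Il6 had fitted changes of 0.78, 0.19, -0.23 and 0.0046, and were named after their values were seen.

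Among all genes that were lower in ICV in 3 of 3 populations, those with the smallest p included regulators of protein and membrane turnover. Sqstm1, the autophagy receptor p62, had 205, 242 and 283 CPM in the ICV libraries, against 437, 465 and 745 CPM in the IV libraries. The highest ICV library lay below the lowest IV library, and the fitted log2 change was -1.15 ± 0.23 (edgeR adjusted p = 0.135). Atg2a, a lipid-transfer protein of growing autophagosomes, and Arrdc3, an arrestin-family adaptor, had changes of -1.37 ± 0.29 and -1.06 ± 0.23. Transcription and chromatin genes in the same group were Zbtb10 (-1.49 ± 0.31), the small Maf factor gene Mafk (-1.47 ± 0.32), the bromodomain ATPase gene Atad2 (-1.43 ± 0.35) and Per1 of the circadian clock (-0.97 ± 0.24). Lmnb1, a nuclear lamina gene, and Gla, the lysosomal enzyme lost in Fabry disease, had -1.57 ± 0.34 and -1.50 ± 0.33. Adjusted p-values of these 8 genes ran between 0.135 and 0.243 by edgeR. Without the IV CD45.2 µ library Zbtb10 and Lmnb1 passed, at -1.75 (adjusted p = 0.032; range over all alternatives 0.00204 to 0.718) and -1.87 (adjusted p = 0.0486; range 0.00202 to 0.718).

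Ankrd33b and Slc7a11 were also lower in each ICV library. Ankrd33b had 6.36, 0.764 and 7.24 CPM in the ICV libraries, against 40.9, 16.6 and 35.6 CPM in the IV libraries. Slc7a11, the cystine importer that feeds glutathione synthesis, had 4.96, 23.1 and 23.5 CPM in the ICV libraries, against 69.8, 45.3 and 48.8 CPM in the IV libraries. For neither gene did the routes overlap, and both rest on few reads in the ICV libraries (226 and 760 counts in all). The chaperone genes Hspa5 of the endoplasmic reticulum and Hspa9 of mitochondria had changes of -0.52 ± 0.20 and -0.83 ± 0.27. Their list of 20 chaperones split into 10 higher and 10 lower in the fit with a median of 0.0091. That median changed sign in 9 of 21 alternatives. The pairs moved in opposite directions, with medians of 0.26, -0.51 and 0.66.

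Proliferation genes were lower in ICV more often than higher. Of 40 cell cycle genes, 30 had a fitted change below 0 (46.1% of all genes did), and 4 were lower at an unadjusted p under 0.05 (4.05%) and none higher (5.17%). The median was -0.29, or -0.16 without the ICV CD45.1 TAµ library. Cenpf, a kinetochore protein, had 11.2, 5.73 and 10.8 CPM in the ICV libraries, against 31.4, 15.9 and 64.4 CPM in the IV libraries. Top2a, the topoisomerase of dividing cells, had 30.6, 42.9 and 25.6 CPM in the ICV libraries, against 80.8, 50.7 and 59.7 CPM in the IV libraries. For neither did the routes overlap, and the same held for Rrm2 and E2f8, which supply nucleotides and control S phase and had single-digit CPM in every ICV library. Mki67 and Pcna, 2 widely used markers, had fitted changes of -0.17 and -0.10 and were named after their values were seen. In bulk RNA, fewer cells of a kind and less RNA per cell cannot be told apart.

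**Figure D2:**
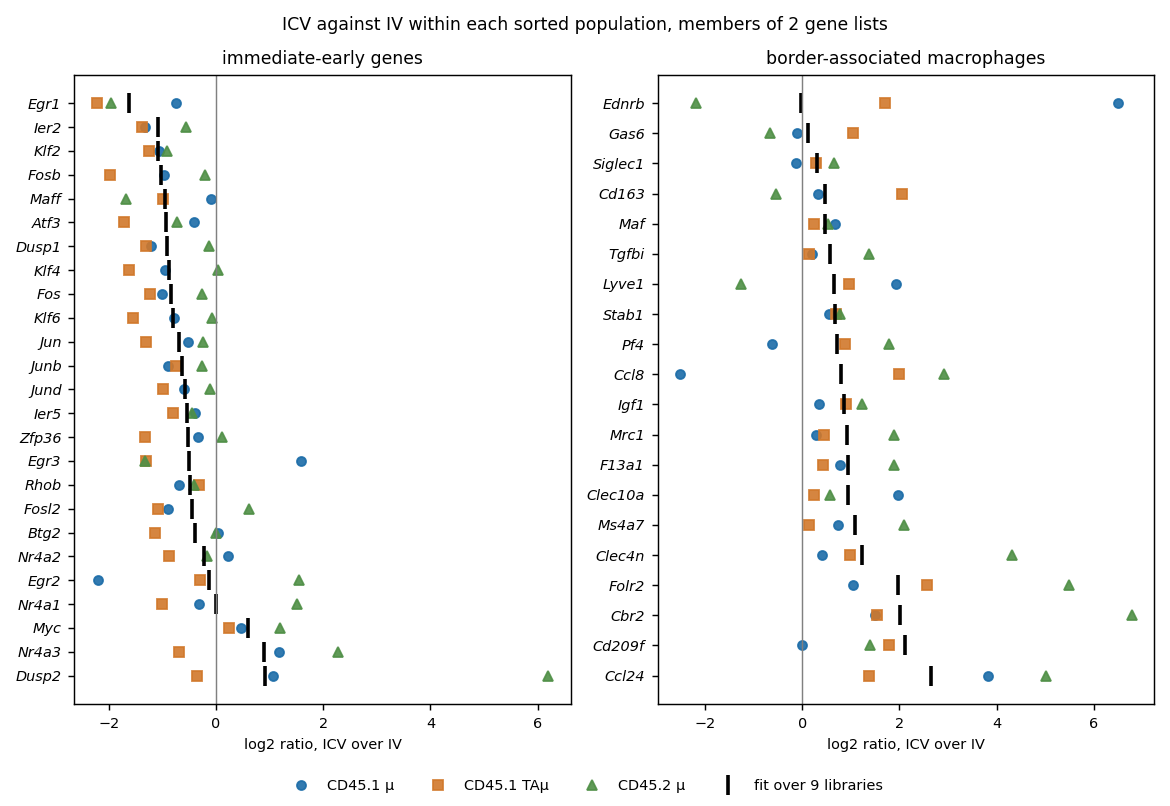
Log2 ratio of ICV over IV (horizontal axes) for the tested members of the immediate-early and border-associated macrophage lists, with 1 point per sorted population and a black bar for the fit over 9 libraries. In the CD45.1 TAµ pair 24 of 25 immediate-early genes lie left of 0 and 20 of 20 border-associated genes lie right of it.

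Vcam1, an adhesion molecule, had the smallest p among genes higher in ICV other than sex-linked and small RNA genes. It had 666, 558 and 537 CPM in the ICV libraries, against 179, 284 and 95.5 CPM in the IV libraries. Every ICV library exceeded every IV library, by a fitted log2 change of 1.86 ± 0.32 or 3.63 times the IV level (edgeR adjusted p = 0.0993). The ITL libraries had 172, 308 and 56.9 CPM, so that ICV stood 1.98 ± 0.33 above ITL in the fit (edgeR adjusted p = 0.119). Leaving out the ICV CD45.1 TAµ library took the change against IV to 2.32 and past the threshold (adjusted p = 0.021; range over all alternatives 3.46e-05 to 0.711). Vcam1 belongs to the list of graft-derived brain macrophage genes, which was chosen with earlier results of these data known.

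Cd38, an enzyme of the same list that degrades NAD at the cell surface, had 62.3, 65.98 and 57.6 CPM in the ICV libraries, against 19.996, 24.7 and 14.7 CPM in the IV libraries. The 3 ICV values were close to each other and above every IV value, with a fitted change of 1.71 ± 0.41 (edgeR adjusted p = 0.243). Across the whole list, 19 of 25 tested members had a fitted change above 0 (53.9% of all genes did) and 6 were higher at an unadjusted p under 0.05 (5.17% of all genes). The list's median was 0.34, with medians of 0.057, 0.15 and 1.79 within the 3 pairs. It stood at 0.14 without the IV CD45.2 µ library and at -0.081 without the ICV CD45.2 µ library. Ccr2, a monocyte receptor, and Ptprc, which encodes CD45, had fitted changes of -0.0013 and 0.30.

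Other genes higher in ICV in every population were Npnt, an extracellular matrix ligand of integrins, Fzd7, a Wnt receptor, and Clec2d, a lectin-like ligand of natural killer receptors. Npnt had 47.9, 86.6 and 40.3 CPM in the ICV libraries, against 19.8, 33.01 and 9.68 CPM in the IV libraries. For none of these 3 genes did the routes overlap, and their fitted log2 changes were 1.55 ± 0.36, 1.14 ± 0.28 and 1.15 ± 0.29 (edgeR adjusted p = 0.222, 0.247 and 0.288). Samd4, which encodes an RNA-binding protein, and Abhd6, a lipid hydrolase, were named for the width of their gap among genes with a mean of 3 log2 CPM or more. Samd4 had 23.8, 22.4 and 23.01 CPM in the ICV libraries, against 11.3, 7.92 and 0.364 CPM in the IV libraries. Abhd6 had 14.9, 13.9 and 15.97 CPM in the ICV libraries, against 6.47, 6.45 and 4.51 CPM in the IV libraries.

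Lysosomal genes are of interest in such transplants, since blood-derived brain cells can supply missing lysosomal enzymes to other cells. Sgsh, the heparan N-sulfatase lost in mucopolysaccharidosis type IIIA, had 98.4, 165 and 99.8 CPM in the ICV libraries, against 62.1, 81.5 and 19.9 CPM in the IV libraries. Galc, the galactosylceramidase lost in globoid cell leukodystrophy, had 191, 251 and 178 CPM in the ICV libraries, against 138, 163 and 61.2 CPM in the IV libraries. For neither gene did the routes overlap, and in both the IV CD45.2 µ library was the lowest. Their fitted changes were 1.30 ± 0.33 and 0.89 ± 0.28, and without that library 1.004 and 0.73. The protease gene Ctsc had 0.78 ± 0.25. Gla, the enzyme of Fabry disease named above, went the other way with -1.50 ± 0.33 and the smallest p of the list. It had 64.3, 30.9 and 62.7 CPM in the ICV libraries, against 130, 166 and 151 CPM in the IV libraries, without overlap. Without the ICV CD45.2 µ library Sgsh, Galc and Ctsc had 0.88, 0.53 and 0.40. Of the 40 tested lysosomal genes, 27 had a fitted change above 0 (53.9% of all genes did), and 6 were higher (5.17% of all genes) and 1 lower (4.05%) at an unadjusted p under 0.05. The list's median was 0.17, with medians of -0.15, 0.60 and 0.070 within the 3 pairs. In the CD45.1 µ pair 26 of 40 members were lower in ICV (48.7% of all genes were). Without the ICV CD45.1 TAµ library the median was -0.00052.

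Most genes of border-associated macrophages were higher in ICV. Of 20 tested members of 21, 19 had a fitted change above 0 (53.9% of all genes did), 11 were higher at an unadjusted p under 0.05 (5.17%) and none lower (4.05%), and 12 were higher in 3 of 3 populations, against 12.6% of all genes. The median log2 change was 0.83, with medians of 0.47, 0.92 and 1.39 within the 3 pairs. Members were higher in 15 of 20 in the CD45.1 µ pair (44% of all genes were), 20 of 20 in the CD45.1 TAµ pair (47.9%) and 16 of 20 in the CD45.2 µ pair (59%). Their summed level was 7142, 8371 and 6187 CPM in the ICV libraries and 5342, 5738 and 3154 CPM in the IV libraries. The count of 11 was 5 without the ICV CD45.2 µ library, 6 without the IV CD45.2 µ library and 7 without the IV CD45.1 TAµ library, while the median was 0.80, 0.81 and 0.75.

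Stab1, a scavenger receptor, had 2923, 3720.5 and 2672 CPM in the ICV libraries, against 2007, 2289 and 1555 CPM in the IV libraries. The groups did not overlap, and the fitted change was 0.68 ± 0.20 (edgeR adjusted p = 0.343). Mrc1, the mannose receptor CD206, had 1943, 2227 and 1515 CPM in the ICV libraries, against 1601, 1644 and 410.2 CPM in the IV libraries. The ICV library was higher in each pair, most in CD45.2 µ, and the groups overlapped, with a change of 0.91 ± 0.29 that was 0.63 without the IV CD45.2 µ library and 0.36 without the ICV one. Ms4a7, a membrane protein shared by border macrophages and graft-derived cells, had 190.3, 201 and 195 CPM in the ICV libraries, against 114, 182 and 45.5 CPM in the IV libraries. The ICV libraries were nearly equal, whereas the IV libraries spread widely.

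Cbr2, a carbonyl reductase, had 28.3, 30.8 and 17.1 CPM in the ICV libraries, against 9.998, 10.5 and 0 CPM in the IV libraries, of which the CD45.2 µ library had none. The transcription factor gene Maf and the growth factor gene Igf1 did not overlap between routes either, with fitted changes of 0.47 ± 0.21 and 0.85 ± 0.30. F13a1, a coagulation factor of perivascular macrophages, had 0.93 ± 0.32. Lyve1 and Cd163, often used to identify these cells, had changes of 0.65 and 0.47 with mixed directions among pairs, and were named after their values were seen. Apoe, the lipid carrier, had 16139.5, 31156 and 21338 CPM in the ICV libraries and 24147, 16106 and 6150.4 CPM in the IV libraries. It was lower in ICV in CD45.1 µ and higher in the other pairs.

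Major histocompatibility complex class II genes, which present antigen, had 11 of 16 members above 0 in the fit (53.9% of all genes were) and a median of 0.44. H2-Ob, a class II modulator chain, had 50.97, 34.6 and 29.7 CPM in the ICV libraries, against 15.9, 25.7 and 4.58 CPM in the IV libraries, without overlap. H2-Aa, a class II alpha chain, had 589, 1477 and 1139 CPM in the ICV libraries and 598, 1306 and 327 CPM in the IV libraries. The 2 routes were close in the CD45.1 pairs and apart in CD45.2 µ. The list's median was 0.14 without the IV CD45.2 µ library and -0.059 without the ICV one.

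Homeostatic microglial genes as a list did not lean to either route. Of 30 members, 17 had a fitted change above 0 and 13 below, the median was 0.031 (-0.080 with library totals alone and -0.28 without the ICV CD45.1 TAµ library), and the medians within pairs were 0.030, 0.67 and -0.46. In the CD45.1 TAµ pair 27 of 30 were higher in ICV (47.9% of all genes were). In the CD45.2 µ pair 22 of 30 were lower in ICV (39.5% of all genes were). Cx3cr1, the fractalkine receptor, had 2570.5, 3236 and 3406 CPM in the ICV libraries, against 2033, 1997 and 2515 CPM in the IV libraries, and P2ry13, a purinergic receptor, had 607, 594 and 683 CPM in the ICV libraries, against 366, 351 and 579 CPM in the IV libraries. Both lay higher in all 3 ICV libraries, with changes of 0.50 ± 0.20 and 0.58 ± 0.23, and P2ry6 showed the same with 0.64 ± 0.28. Rasal3, a Ras-inactivating protein, was lower in each pair with -0.58 ± 0.24. Sall1 had 109, 7.35 and 188 CPM in the ICV libraries and 80.04, 2.11 and 483 CPM in the IV libraries, so that its pairs differed in direction. Trem2, a lipid receptor of activated microglia, had 208, 541 and 336 CPM in the ICV libraries and 462, 233 and 334 CPM in the IV libraries, also without a common direction.

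**Figure D3:**
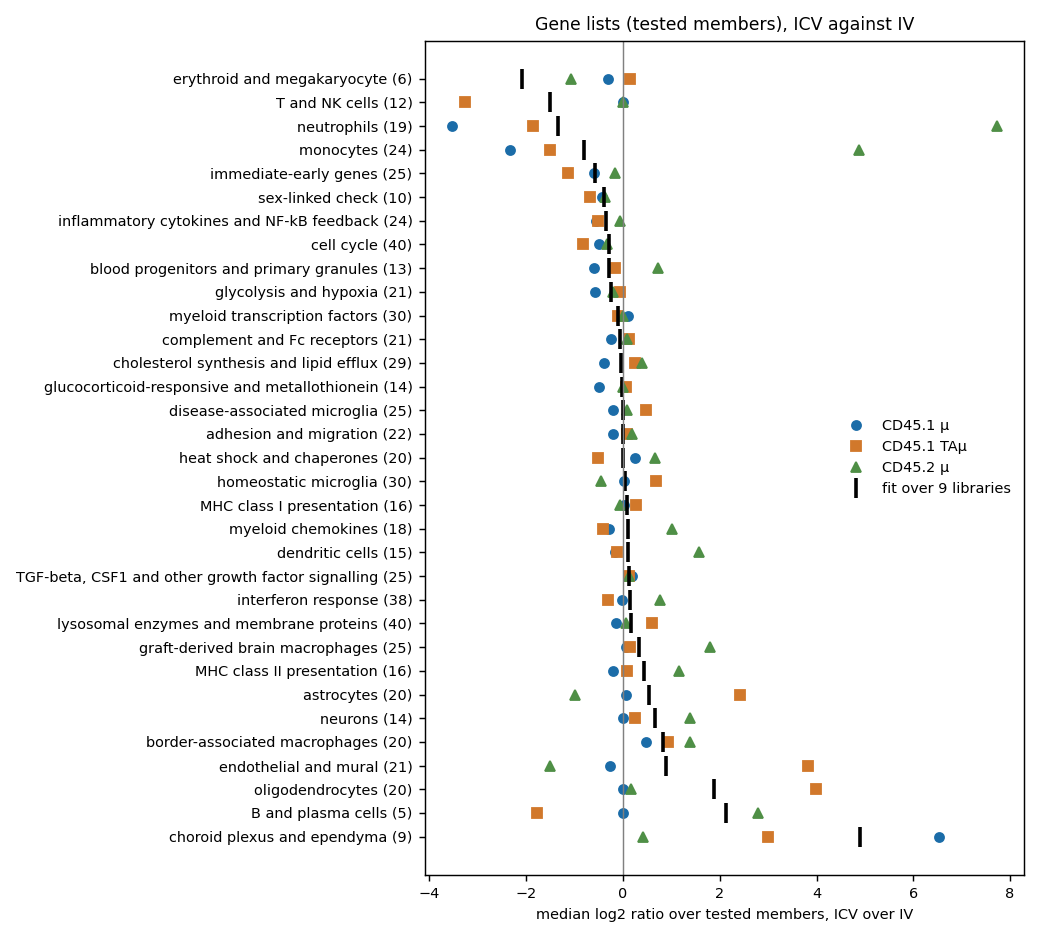
Median log2 ratio of ICV over IV (horizontal axis) over the tested members of 33 gene lists, whose number stands in parentheses, with 1 point per sorted population and a black bar for the median of the fit over 9 libraries. Neutrophil and monocyte genes lie left of 0 in both CD45.1 pairs and right of 0 in the CD45.2 µ pair, at 7.73 and 4.89.

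Genes listed for the choroid plexus and ependyma, the lining of the ventricles, were detected in the ICV libraries and also in the ITL libraries. Most of their summed level came from Ttr and Enpp2, and no gene of ependyma alone is shown here. Of 18 genes of choroid plexus and ependyma 9 passed the filter on low counts, and these had to be high somewhere to pass. The 18 genes summed to 1351, 199.9 and 22.2 CPM in the ICV libraries and 4.82, 16.2 and 9.97 CPM in the IV libraries. In the ITL libraries they summed to 27.4, 58.99 and 127.7 CPM, each above the level of the ICV CD45.2 µ library. Ttr, the thyroid hormone carrier secreted by choroid plexus, had 786, 48.5 and 3.70 CPM in the ICV libraries, against 0, 6.19 and 4.73 CPM in the IV libraries. The ICV CD45.1 µ library held most of it, and both CD45.2 µ libraries had under 5 CPM. The ITL libraries had 17.8, 21.1 and 32.2 CPM. The change of Ttr against IV was 5.20 ± 1.29, or 2.28 without the ICV CD45.1 µ library (edgeR adjusted p = 0.59) and 2.97 without the IV CD45.1 µ library (adjusted p = 0.67). It passed the test without the ICV CD45.2 µ library (6.54, adjusted p = 0.0184; range over all alternatives 0.0184 to 0.877). Enpp2, the enzyme autotaxin of choroid plexus and oligodendrocytes, had 472, 121 and 16.4 CPM in the ICV libraries, against 4.76, 6.13 and 2.69 CPM in the IV libraries. Every ICV library exceeded every IV library, with a fitted log2 change of 5.12 ± 0.98 (edgeR adjusted p = 0.135). It was 3.21 without the ICV CD45.1 µ library (adjusted p = 0.469) and 6.28 without the ICV CD45.2 µ library (adjusted p = 8.84e-04; range over all alternatives 8.84e-04 to 0.718). Prlr and Kl, a hormone receptor and a co-receptor of the choroid plexus, were highest in the same ICV CD45.1 µ library, at 45.7 and 14.4 CPM, and did not exceed 1 CPM in any IV library. Folr1, another choroid plexus gene, was at or near 0 in all 6 libraries.

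Myelin and vessel transcripts followed another library. The summed level of 20 oligodendrocyte genes was 1549.8, 3193 and 1304 CPM in the ICV libraries and 1187, 842 and 1718 CPM in the IV libraries. The ICV CD45.1 TAµ library was the highest. Ermn, a cytoskeletal protein of myelin sheaths, had 18.4, 57.4 and 9.66 CPM in the ICV libraries and 0, 0.511 and 0.0728 CPM in the IV libraries. Cldn11, a tight junction protein of myelin, reached 125 CPM in the ICV CD45.1 TAµ library and under 1 CPM in every IV library. Endothelial and mural genes summed to 263.9, 1376 and 312 CPM in the ICV libraries and 229.5, 179.6 and 817 CPM in the IV libraries, and astrocyte genes to 267, 577 and 481.6 CPM in the ICV libraries and 203, 104.9 and 1019 CPM in the IV libraries. The part of these transcripts in the results on Vcam1, Igf1 and other genes that vessels or choroid plexus also use was not tested. Vcam1 was 666, 558 and 537 CPM in the ICV libraries. In the same libraries choroid plexus and ependymal genes summed to 1351, 199.9 and 22.2 CPM, and vessel genes to 263.9, 1376 and 312 CPM.

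**Figure D4:**
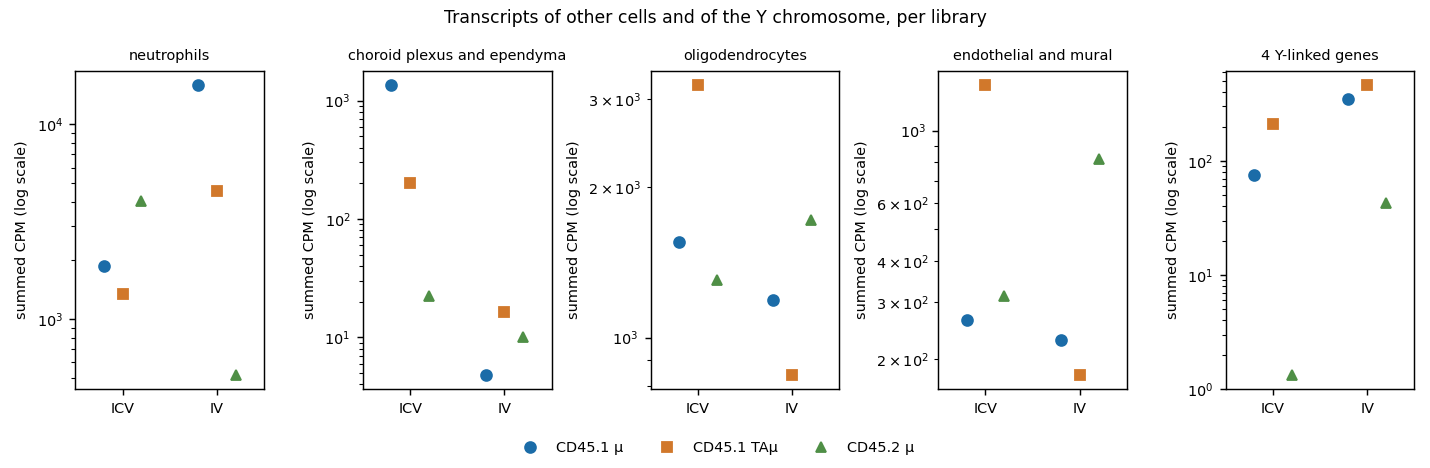
Summed CPM (vertical axes, logarithmic) of 4 gene lists of other cells and of 4 Y-linked genes in the ICV and IV libraries, with 1 point per sorted population. Choroid plexus and ependymal genes are highest in ICV CD45.1 µ (1351 CPM), and neutrophil genes are highest in IV CD45.1 µ (15899 CPM) and lowest in IV CD45.2 µ (516 CPM).

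Neutrophil genes differed in opposite directions between populations. Their summed level was 1866, 1343 and 4024 CPM in the ICV libraries and 15899, 4570.0 and 516 CPM in the IV libraries. All 19 tested members were lower in ICV in both CD45.1 pairs (48.7% and 51.7% of all genes were). In the CD45.2 µ pair 18 of 19 were higher in ICV (59% of all genes were). The fit gave all 19 a change below 0 with a median of -1.34, which was -2.51 without the IV CD45.2 µ library, -2.31 without the ICV CD45.2 µ library, -0.42 without the ICV CD45.1 µ library, -0.036 without the IV CD45.1 µ library and 0.18 without all 3 CD45.1 µ libraries. S100a9, a calcium-binding protein stored by neutrophils, had 309, 254.6 and 882 CPM in the ICV libraries and 3860, 1090.1 and 0 CPM in the IV libraries. Cd177, a neutrophil surface protein, had 15.5, 6.78 and 33.1 CPM in the ICV libraries and 219, 47.5 and 0 CPM in the IV libraries. Its fitted change was -1.78 ± 0.90 and, without the IV CD45.2 µ library, -3.14 (edgeR adjusted p = 0.00474; range over all alternatives 0.00474 to 0.991). Without the IV CD45.1 µ library it was -0.36 (adjusted p = 0.943). Mxd1 also passed without the IV CD45.2 µ library, with -2.61 (adjusted p = 0.00841; range 0.00841 to 0.991), and stood at -0.90 without the ICV CD45.1 µ library. Without the IV CD45.2 µ library 28 of 13191 genes passed (0.212%), 26 of them lower in ICV. Of those 28, 10 were neutrophil genes of the list. None of those 28 was an immediate-early gene, which is near the share of 0.212% over all genes. In that setting Klf2 and Dusp1 had an edgeR adjusted p of 0.0593, and Egr1 and Ier2 0.0659. The part of neutrophil transcripts in the lower inflammatory and immediate-early genes was not tested. Within the 3 pairs, neutrophil genes had median log2 ratios of -3.52, -1.86 and 7.73. Those of immediate-early genes were -0.60, -1.14 and -0.16, and those of the inflammatory list -0.55, -0.53 and -0.072.

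Monocyte genes showed the same opposition, with medians of -2.35 and -1.51 in the CD45.1 µ and CD45.1 TAµ pairs and 4.89 in the CD45.2 µ pair. Ly6c2, a marker of inflammatory monocytes, had 15.3, 3.44 and 21.4 CPM in the ICV libraries and 70.9, 48.9 and 0 CPM in the IV libraries. T and NK cell genes summed to 24.0, 40.6 and 34.98 CPM in the ICV libraries and 20.6, 60.9 and 4.37 CPM in the IV libraries. B and plasma cell genes summed to 7.77, 41.8 and 9.81 CPM in the ICV libraries and 3.65, 5.04 and 6.04 CPM in the IV libraries. Erythroid and megakaryocyte genes summed to 97.98, 201 and 94.1 CPM in the ICV libraries and 144, 76.4 and 57.3 CPM in the IV libraries. Among defining markers of these lists, Cd3e and Ms4a1 stayed under 2 CPM, and the haemoglobin genes Hba-a1 and Hbb-bs were 0, in all 6 libraries. A count of 0 allows at most 0.269 CPM there, which covers counting error only and not how reads were filtered. Alas2, the haem synthesis enzyme of red cell precursors, reached 13.5 CPM in the IV CD45.2 µ library. Dendritic cell genes had a median of 0.11.

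Sex-linked transcripts set the routes apart in every population. Xist, the RNA that silences an X chromosome in female cells, had 5789.8, 489 and 6995 CPM in the ICV libraries, against 296, 11.6 and 3792 CPM in the IV libraries. It was higher in ICV in each pair, with a fitted change of 3.43 ± 0.56 (edgeR adjusted p = 0.0757). It passed without the IV CD45.2 µ library (4.44, adjusted p = 0.00454) and without the ICV one (4.42, adjusted p = 1.78e-04), with a range over all alternatives of 1.75e-04 to 0.719. The 4 Y-linked genes summed to 75.5, 211 and 1.34 CPM in the ICV libraries and 351, 462 and 43.2 CPM in the IV libraries, and Ddx3y and Eif2s3y had fitted changes of -2.41 ± 0.44 and -1.71 ± 0.55. Ddx3y passed without the IV CD45.2 µ library (-1.997, adjusted p = 0.0332; range over all alternatives 2.11e-05 to 0.711). Xist and Y-linked transcripts were both detected in all 6 libraries. The sex of the cells and the route cannot be told apart in these libraries.

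The small structured RNAs Snord104 and Rmrp also differed. All small nucleolar RNAs together took 0.049%, 0.33% and 0.12% of counts in the ICV libraries and 0.087%, 0.17% and 0.14% in the IV libraries. That share was lower in ICV outside CD45.1 TAµ. Snord104, a small nucleolar RNA, had 6.69, 165 and 78.9 CPM in the ICV libraries and 4.06, 15.3 and 4.80 CPM in the IV libraries, and Rmrp, the RNA of a ribosomal RNA processing enzyme, had 192, 2036 and 371 CPM in the ICV libraries and 141, 349.9 and 123 CPM in the IV libraries. Both were higher in ICV in each pair, least in CD45.1 µ, with fitted changes of 3.13 ± 0.51 and 1.63 ± 0.34 (edgeR adjusted p = 0.0757 and 0.135). Snord104 passed without the ICV CD45.1 µ library (3.46, adjusted p = 0.0469) or the IV one (3.50, adjusted p = 0.0247), with a range over all alternatives of 2.44e-04 to 0.718. The share of Rn45s was also higher in ICV in the CD45.1 TAµ and CD45.2 µ pairs and lower in CD45.1 µ, and the part of RNA composition in these values was not tested.

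Other lists of cell functions had medians between -0.24 (glycolysis and hypoxia) and 0.14 (interferon response). The 38 tested interferon-response genes had a median of 0.14, with 25 above 0 (53.9% of all genes were). The medians within pairs were -0.030, -0.31 and 0.76, and that of the fit was -0.11 without the ICV CD45.2 µ library and -0.096 without the IV one. The 25 disease-associated microglial genes had 12 above and 13 below 0 (53.9% and 46.1% of all genes were). In that list Cst7, a protease inhibitor, had 0, 7.73 and 6.68 CPM in the ICV libraries and 31.6, 3.96 and 49.6 CPM in the IV libraries, lower in ICV outside CD45.1 TAµ. Of 21 complement and Fc receptor genes 10 lay above 0 (53.9% of all genes did). C1qa, a chain of the first complement component, was higher in each pair with 0.73 ± 0.28. Of 21 glycolysis and hypoxia genes 15 lay below 0 (46.1% of all genes did). Among them were Pkm and Hif1a, with -0.67 ± 0.24 and -0.62 ± 0.25 and no overlap between routes. Csf1, the growth factor of macrophages, had 23.1, 25.5 and 29.7 CPM in the ICV libraries and 43.9, 28.5 and 340.3 CPM in the IV libraries, of which the CD45.2 µ library stood out. The cholesterol efflux gene Abcg1 and the lipid transfer gene Pltp did not overlap and were higher by 0.61 ± 0.23 and 1.15 ± 0.37. Itgb2, the beta chain of leukocyte integrins, was lower in each pair with -0.65 ± 0.23. Chemokine genes Ccl7 and Ccl6 went in opposite directions, with 1.38 ± 0.42 and -0.95 ± 0.33, and their list of 18 had a median of 0.093. Medians were 0.0021 for adhesion and migration, 0.072 for class I presentation, -0.11 for myeloid transcription factors, 0.13 for growth factor signalling, -0.013 for glucocorticoid-responsive genes and -0.046 for cholesterol genes, and of these 6 medians all but that of myeloid transcription factors changed sign in at least 1 alternative. Lists with few reads had medians of 2.13 (5 tested B and plasma cell genes), -1.52 (12 T and NK cell genes), -2.08 (6 erythroid and megakaryocyte genes), -0.29 (13 progenitor genes) and 0.66 (14 neuronal genes). The T and NK cell median was 0.016 without the ICV CD45.1 TAµ library, 1.20 without the IV one and 0.53 in the 6 libraries alone. The progenitor median was 0.16 without the ICV CD45.1 µ library and 0.11 without the IV one.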

How the data were processed

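Polyadenylated RNA of cells sorted from mouse brain had been extracted with a micro column kit and reverse transcribed, per the labels' protocols. The files deposited by the authors hold raw counts, 1 table per library with a line for each gene symbol. Reads were aligned with STAR to mm39 (GRCm39), per the submitters' processing notes. The version, the gene models, whether counting used strand, and filtering steps were not given in the sources used here, so reads of a gene and its antisense partner, such as Xist and Tsix, may be mixed.

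Each table held 24411 symbols. The 9 ICV, ITL and IV libraries were fitted in R 4.3.3 with edgeR 4.0.16, in an additive quasi-likelihood model of route and population with TMM scaling and 4 residual degrees of freedom. A count filter (minimum 10, total 15) left 13339 genes. The biological coefficient of variation was 0.842. Benjamini-Hochberg adjusted p was called at 0.05. CPM were scaled by the TMM factors. Log2 ratios of single libraries used a prior count of 2. The SE came from the fold change and its F statistic. The model was tested on simulated data. Libraries were compared for duplicates: over 15 pairs the lowest chi-square per degree of freedom was 77.0, and none differed as little as sampling noise.

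Pairing by population comes from the labels, which give no replicate numbers. With 1 library per route and population, an interaction could not be tested. Members, the 33 gene lists and the rule for named genes were chosen with earlier results of these data known. By the rule, the text names, per direction, up to 10 genes of smallest p (mean of 3 log2 CPM or more, same direction in 3 of 3 populations), up to 4 genes per list by p, up to 6 each way with the widest gap between routes, and 8 fixed genes. Promoters were matched by symbol in a RefSeq table. Alternatives included DESeq2 1.42.0, limma 3.58.1, other filters and scalings, and leaving out libraries. Some genes that the rule names are not reported here.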

Additional observations from a re-analysis of the deposited data

Results flagged for a closer look

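For monocyte genes, the median log2 ratio of ICV over IV was 4.89 in the CD45.2 µ pair, against -2.35 in the CD45.1 µ pair and -1.51 in the CD45.1 TAµ pair. For neutrophil genes it was 7.73 in the CD45.2 µ pair, against -3.52 in the CD45.1 µ pair and -1.86 in the CD45.1 TAµ pair. Both lists drew attention because the populations moved in opposite directions under the same comparison of routes. The difference between populations was not tested, since 1 library stood for each population and route.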

How the results depend on the processing

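The count of genes past the threshold, 0 in edgeR's main model, was 8 without a filter (6 higher, 2 lower), 412 by DESeq2 (226 higher, 186 lower), 26 by limma-voom (6 higher, 20 lower), 1 in the 6 libraries alone (1 higher), 6 in all 11 libraries (4 higher, 2 lower), 31 without the CD45.2 µ libraries (6 higher, 25 lower) and 3 with library totals alone (2 higher, 1 lower), a setting chosen after seeing the data. Leaving out 1 library gave 0 to 28 genes, 0 to 4 of them higher and 0 to 26 lower. Without the replicate block of population the count was 0. Immediate-early genes lower at an unadjusted p under 0.05 numbered 16, 9 without the CD45.1 µ libraries, 4 without the CD45.1 TAµ libraries and 9 to 17 when 1 library was left out. Border-associated genes higher at that p numbered 11, 5 in the legacy fit, 6 without the replicate block, 6 in the 6 libraries alone, 6 without the CD45.2 µ libraries and 5 to 10 when 1 library was left out. Genes with all ICV libraries above IV numbered 669, or 408 without composition scaling, and those below 620, or 935. The medians of both lists kept their sign in all 21 alternatives, at -0.93 to -0.39 and 0.63 to 1.08. Of 1714 recomputed changes of the 82 genes named by the rule, 12 reversed. Sall1 went to 0.24 by DESeq2, 0.17 in the legacy fit, -0.89 to 0.59 when 1 library was left out (above 0 without either ICV or IV CD45.2 µ), 0.69 without the CD45.2 µ libraries and 0.76 without both ICV CD45.1 µ and IV CD45.2 µ. Trem2 went to -0.41 to 0.46 when 1 library was left out (below 0 without either CD45.1 TAµ library of the 2 routes or without ICV CD45.2 µ), -0.51 without the CD45.1 TAµ libraries and -0.10 with library totals alone. Ptprc went to -0.16 without both ICV CD45.1 µ and IV CD45.2 µ. Changes of these 3 genes did not pass in any alternative, and the cause was not tested. Genes with few reads, such as those of the choroid plexus in the IV libraries, are limited by depth: a count of 0 there allows up to 0.176 CPM in CD45.1 µ, 0.203 in CD45.1 TAµ and 0.232 in CD45.2 µ, covering counting error only.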
